A study of Mus musculus with 16 samples.

Results

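Transcripts of 9 B cell genes were followed in arteries of mice that lacked Apoe, with or without Mif: Cd79a, Cd79b, Ms4a1, Pax5, Cd22, Blk, Blnk, Cd37 and Fcrla. The 9 were taken by name from the 55356 named gene rows of the count table for their known roles in B cells, and all 9 were found. Each library came from brachiocephalic artery sections. This vessel leaves the arch of the aorta and is a common site of plaques in mice without Apoe on a fatty diet. All 16 mice were female, carried the Apoe-/- genotype, and ate a Western-type diet (0.2% cholesterol, 21.2% fat) that began at 6 weeks of age. The 4 groups of 4 mice were Apoe-/-Mif-/- after 42 weeks of diet (about 48 weeks old), Apoe-/- after 42 weeks, Apoe-/-Mif-/- after 24 weeks (about 30 weeks old) and Apoe-/- after 24 weeks. Age and time on diet therefore cannot be told apart. The protein of Mif, macrophage migration inhibitory factor, is a cytokine that also acts on chemokine receptors. The lysate of each mouse pooled 3 to 4 whole-vessel sections of 5 µm, so each library is a mixture of cell types.

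B cells read antigen through the B cell receptor, a membrane immunoglobulin paired with the signalling chains that Cd79a and Cd79b encode. When the receptor is engaged, Src-family kinases such as Blk phosphorylate these chains, Syk binds to them, and the adaptor encoded by Blnk links Syk to Btk and phospholipase C gamma. Pax5 is the transcription factor that holds cells in the B lineage, and Cd22 is an inhibitory lectin that damps the receptor. In atherosclerosis of mice, B cells are known mainly from the adventitia and the fat around the vessel.

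Promoter windows were available for 6 of the 9 genes. Those of the 3 genes with most of the counts, and of the receptor chain Cd79a, are printed with the short motifs of B cell and myeloid transcription factors marked in them. They come from RefSeq (build GRCm38.p6, not the GRCm39 of the alignment), run 5′ to 3′ on the strand of the gene, and span 250 bases before to 50 after the annotated start. Capitals mark the octamer core TTTGCAT, the EBF1 core CCCNNGGG or the PU.1 core GAGGAA on either strand.
Cd37, chr7:45238790-45239089, minus strand: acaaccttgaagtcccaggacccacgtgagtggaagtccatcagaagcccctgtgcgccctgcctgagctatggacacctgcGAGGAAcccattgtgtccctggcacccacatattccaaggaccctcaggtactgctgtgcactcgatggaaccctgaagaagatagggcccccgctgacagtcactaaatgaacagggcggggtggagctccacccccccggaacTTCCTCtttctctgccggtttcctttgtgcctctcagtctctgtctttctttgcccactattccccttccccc
Cd22, chr7:30878979-30879278, minus strand: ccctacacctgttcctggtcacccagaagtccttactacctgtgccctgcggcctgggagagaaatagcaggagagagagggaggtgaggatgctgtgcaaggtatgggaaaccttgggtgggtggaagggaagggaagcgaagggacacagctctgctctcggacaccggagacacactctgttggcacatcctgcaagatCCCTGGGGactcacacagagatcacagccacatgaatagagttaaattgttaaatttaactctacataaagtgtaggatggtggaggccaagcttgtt
Blnk, chr19:40994172-40994471, minus strand: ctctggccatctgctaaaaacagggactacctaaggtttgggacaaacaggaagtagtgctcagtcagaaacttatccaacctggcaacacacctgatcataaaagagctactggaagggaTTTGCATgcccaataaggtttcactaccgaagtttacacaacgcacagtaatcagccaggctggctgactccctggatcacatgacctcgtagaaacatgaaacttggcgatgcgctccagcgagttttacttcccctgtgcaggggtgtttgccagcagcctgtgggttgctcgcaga
Cd79a, chr7:24897247-24897546, plus strand: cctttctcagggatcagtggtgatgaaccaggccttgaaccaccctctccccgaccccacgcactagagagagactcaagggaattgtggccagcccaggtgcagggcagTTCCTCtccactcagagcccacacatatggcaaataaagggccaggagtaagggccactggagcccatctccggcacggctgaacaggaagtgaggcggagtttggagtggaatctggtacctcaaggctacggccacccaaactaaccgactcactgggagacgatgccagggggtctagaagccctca

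The PU.1 core, named for a factor of myeloid and B cells, occurred at -168 and -23 in the Cd37 window, at -140 in that of Cd79a and at -37 in that of Fcrla. It was found in 28.3% of 32851 promoter windows of the same length. The EBF1 core began at -48 in the Cd22 window (13.7% of all windows) and the octamer core at -129 in the Blnk window (4.63% of all windows). The E-box CAGCTG (16.3% of all windows) was in none of the 6 windows, the matches did not overlap one another, and the window of Pax5 held none of these letters. A match says only that the letters are present.

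Depth ran from 378066 counts in Apoe-/- library 1 at 42 weeks to 8649518 in Apoe-/- library 3 at 24 weeks. Levels are in CPM, counts scaled by library total and by the TMM factor of edgeR. A count of 0 allowed up to 3 counts, which is 0.327 CPM in the deepest and 6.33 CPM in the shallowest library; such limits cover counting error only, since PCR reads carried no molecular identifiers. Mif itself lay between 2.39 and 19.9 CPM in the libraries of Apoe-/-Mif-/- mice, against 23.2 to 301 CPM in those of Apoe-/- mice. Smooth muscle and endothelial markers of the labelled tissue were all detected over the 16 libraries together, but not all in every library. Apoe-/- library 1 at 42 weeks had counts for 6 of 8 smooth muscle markers. Apoe-/-Mif-/- library 3 at 24 weeks had counts for 7 of 8 endothelial markers. Apoe-/- library 4 at 24 weeks stood apart: its summed T cell markers reached 5819 CPM (at most 982 CPM elsewhere) and its thymocyte markers 3504 CPM (at most 351 CPM elsewhere). Per the column names, plate row C held the Apoe-/-Mif-/- group of 24 weeks and row B the other 12 libraries, so row and group cannot be told apart there.

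The 9 genes held 10756 of 52140728 counts. Cd37 alone held 5839, Cd22 2287 and Blnk 1787, together 92.2% of the counts of the 9 genes. The other 6 held 843 counts (7.84%): Cd79b 474, Blk 261, Cd79a 87, Pax5 18, Fcrla 2 and Ms4a1 1. Per length of exon, the mean level was 34.0 CPM per kb for Cd37, 9.04 for Blnk, 7.05 for Cd79b, 6.90 for Cd22, 1.95 for Blk and 1.30 for Cd79a. On the same scale Pax5 reached 0.092, Fcrla 0.0289 and Ms4a1 0.0213 CPM per kb. Cd37, a tetraspanin that other leukocytes also make, thus carried most of the counts. Pax5, Fcrla and Ms4a1 carried little on either scale, while Cd79b lay near Cd22 per length of exon. In bulk tissue, fewer cells of a type and less RNA per cell cannot be told apart.

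**Figure D1:**
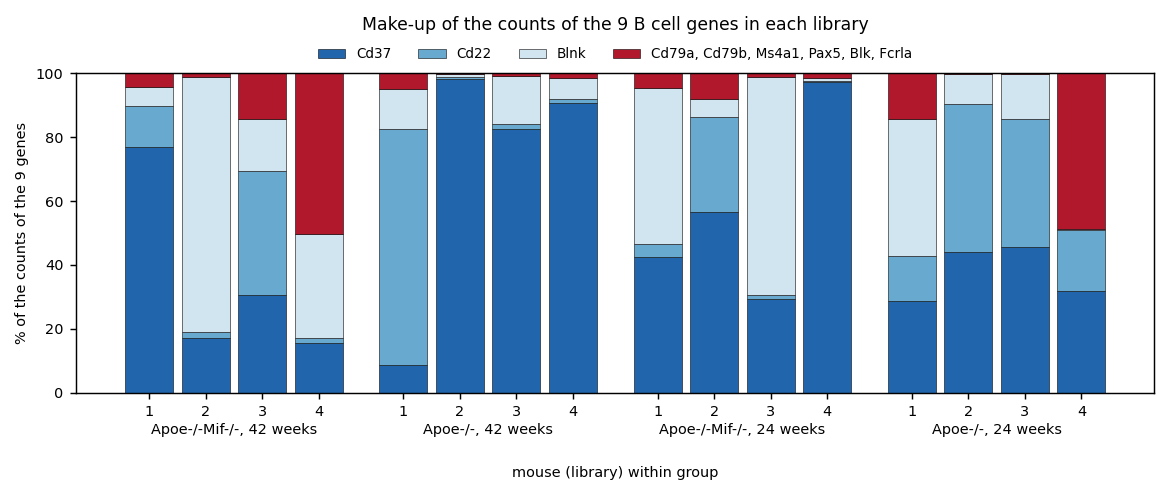
Share of the counts of the 9 genes (%, vertical axis) that each gene or group of genes took in each library (horizontal axis, libraries 1 to 4 of each group). The 6 genes in red took 50.2% in Apoe-/-Mif-/- library 4 at 42 weeks and 48.7% in Apoe-/- library 4 at 24 weeks, and at most 14.3% in any other library.

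Most transcripts that define B cells were at or near 0, so the genes are named here rather than taken as a measure of B cells. Of 8 other B cell markers, Cr2 and Vpreb3 had 0 counts in all 16 libraries. Several markers were held almost wholly by 1 library. Fcer2a, the low-affinity IgE receptor, had 353 of 366 counts in Apoe-/- library 4 at 24 weeks, and Spib, a transcription factor, had 257 of 278 in Apoe-/-Mif-/- library 3 at 42 weeks. Ighd had 151 of 165 counts in Apoe-/- library 3 at 24 weeks. Immunoglobulin transcripts, by contrast, were found in every library, with 12108 counts of Ighm and 12857 of Igkc in all.

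Cd79b, the immunoglobulin beta chain of the receptor, had 0.514, 4.18, 28.7 and 95.9 CPM in Apoe-/-Mif-/- mice at 42 weeks, against 0, 0.295, 0.780 and 3.49 CPM in Apoe-/- mice at 42 weeks. At 24 weeks it had 1.31, 19.7, 0.812 and 1.39 CPM in Apoe-/-Mif-/- mice, against 0.505, 0, 0 and 3.75 CPM in Apoe-/- mice. The 3 highest counts were all in libraries of Apoe-/-Mif-/- mice (120 and 223 at 42 weeks, 96 at 24 weeks). The remaining libraries of these mice had 1 to 4 counts, and those of Apoe-/- mice had 0 to 12. The ranges of both genotypes overlapped at both times. Means were 32.3 ± 44.2 CPM in Apoe-/-Mif-/- and 1.14 ± 1.60 CPM in Apoe-/- arteries at 42 weeks, and 5.80 ± 9.26 and 1.06 ± 1.81 CPM in the same genotypes at 24 weeks (SD, n = 4 each).

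The partner chain Cd79a, the immunoglobulin alpha chain, did not follow the same libraries. It had 0, 1, 10 and 0 counts in Apoe-/-Mif-/- mice and 0, 0, 0 and 1 in Apoe-/- mice at 42 weeks. At 24 weeks it had 6, 1, 1 and 5 counts in Apoe-/-Mif-/- mice and 0, 0, 1 and 61 in Apoe-/- mice. Apoe-/-Mif-/- library 4 at 42 weeks, with 223 counts of Cd79b, had none of Cd79a, and the library with 61 counts of Cd79a had 12 of Cd79b. Over the 16 libraries the log2(CPM + 1) values of both chains had a Pearson r of 0.19 and a Spearman rho of 0.57, given as a description in which many values lie at or near 0. Both proteins are needed for the receptor to reach the cell surface.

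**Figure D2:**
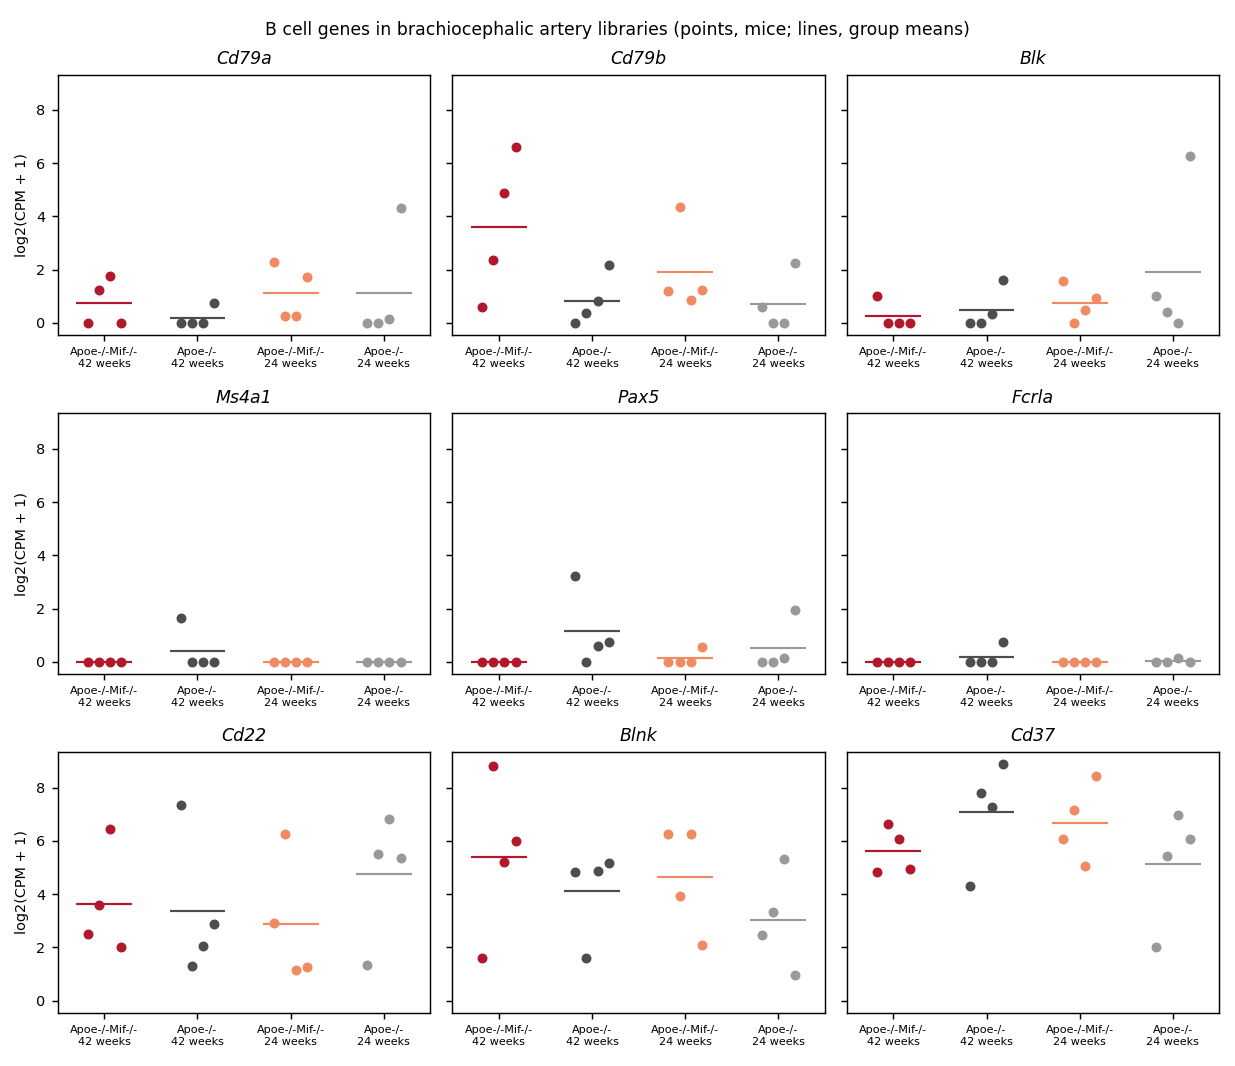
Level of each of the 9 genes (log2(CPM + 1), vertical axes) in each library, by group, with points for mice and lines for means of the log2 values. Cd79b reached 95.9 CPM in 1 library of the Apoe-/-Mif-/- mice at 42 weeks, while Ms4a1, Pax5 and Fcrla stayed at or near 0 in nearly all libraries.

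Blk, the Src-family kinase that phosphorylates the receptor chains, was found mainly in 1 library. It had 2, 0, 0 and 0 counts in Apoe-/-Mif-/- mice and 0, 0, 1 and 3 in Apoe-/- mice at 42 weeks, then 3, 0, 2 and 2 in Apoe-/-Mif-/- mice and 2, 2, 0 and 244 in Apoe-/- mice at 24 weeks. Apoe-/- library 4 at 24 weeks thus held 93.5% of all Blk counts, at 76.3 CPM. The same library held 70.1% of the Cd79a counts, 50% of the Pax5 counts, 5668 of 12108 counts of Ighm and 752 of 803 counts of Rag1, the recombinase of developing lymphocytes. It also had 5819 CPM of summed T cell markers, as given above. The part of these cells in the Blk and Cd79a values was not tested. Blk had r = 0.80 (rho = 0.32) with Cd79a on the log2(CPM + 1) scale over the 16 libraries.

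Blnk, the adaptor, was measured in every library. It had 2.05, 451, 35.9 and 62.4 CPM in Apoe-/-Mif-/- mice, against 27.4, 2.07, 28.1 and 34.9 CPM in Apoe-/- mice at 42 weeks. At 24 weeks it had 76.6, 14.4, 74.9 and 3.24 CPM in Apoe-/-Mif-/- mice, against 4.55, 8.95, 39.0 and 0.938 CPM in Apoe-/- mice. Ranges overlapped at both times, and Apoe-/-Mif-/- library 2 at 42 weeks held 52.1% of the summed CPM of the gene. That library had 34151 CPM of summed macrophage markers and 982 CPM of summed T cell markers. Apoe-/- library 2 at 42 weeks, with the highest macrophage sum (37067 CPM), had 2.07 CPM of Blnk. Of B cell genes, Apoe-/-Mif-/- library 2 at 42 weeks had 1 count of Cd79a, 3 of Cd79b, 8 of Cd22, 70 of Cd37 and 88 of Ighm. It had 0 of Pax5, Blk, Ms4a1 and Fcrla. Those genes had few or no counts in nearly all libraries, so their 0 says little here. The part of these cell types in the Blnk values was not tested. Means were 138 ± 210 CPM in Apoe-/-Mif-/- and 23.1 ± 14.4 CPM in Apoe-/- mice at 42 weeks, and 42.3 ± 38.9 and 13.4 ± 17.4 CPM in the same genotypes at 24 weeks (SD, n = 4 each).

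Among the surface proteins, Ms4a1, which encodes CD20, had 1 count in all, in Apoe-/- library 1 at 42 weeks. Its level in the other 15 libraries was not detectable at this depth. Cd22 was detected in every library but unevenly. At 42 weeks it had 4.62, 11.1, 85.2 and 3.01 CPM in Apoe-/-Mif-/- mice, against 160, 1.48, 3.12 and 6.28 CPM in Apoe-/- mice. In those groups 1 library each lay far above the other 3, and the 160 CPM came from 76 counts of the shallowest library. At 24 weeks Cd22 had 6.55, 75.5, 1.22 and 1.39 CPM in Apoe-/-Mif-/- mice, against 1.52, 44.4, 112 and 39.7 CPM in Apoe-/- mice. Here 3 of 4 Apoe-/- libraries lay above 3 of 4 Apoe-/-Mif-/- libraries, with overlap. Means at 24 weeks were 21.2 ± 36.3 and 49.3 ± 45.8 CPM in these genotypes (SD, n = 4 each).

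Cd37 was the most even of the 4 genes with enough counts to test, with 24.7% of its summed CPM in the highest library. It had 27.2, 97.5, 66.8 and 29.7 CPM in Apoe-/-Mif-/- mice, against 19.0, 220, 155 and 472 CPM in Apoe-/- mice at 42 weeks. At 24 weeks it had 66.8, 143, 32.3 and 347 CPM in Apoe-/-Mif-/- mice, against 3.03, 42.4, 126 and 66.6 CPM in Apoe-/- mice. At 42 weeks 3 of 4 Apoe-/- libraries lay above all 4 Apoe-/-Mif-/- libraries, and the 19.0 CPM of the remaining one came from 9 counts of the shallowest library. Means were 55.3 ± 33.5 CPM in Apoe-/-Mif-/- and 217 ± 190 CPM in Apoe-/- mice at 42 weeks, and 147 ± 141 and 59.5 ± 51.5 CPM in the same genotypes at 24 weeks (SD, n = 4 each). Cd37 overlaps Tead2 on the opposite strand in GENCODE M21 and the libraries carry no strand, so reads of both genes cannot be told apart in the overlap. Tead2 had 245 counts in all.

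Pax5 had 0 counts in all 4 libraries of Apoe-/-Mif-/- mice at 42 weeks, against 4, 0, 2 and 1 in Apoe-/- mice. At 24 weeks it had 0, 0, 0 and 1 counts in Apoe-/-Mif-/- mice, against 0, 0, 1 and 9 in Apoe-/- mice. These counts are too few to set the groups apart. Fcrla, an intracellular Fc receptor-like protein of B cells, had 1 count in Apoe-/- library 4 at 42 weeks and 1 in Apoe-/- library 3 at 24 weeks, and a pseudogene on its strand (Gm2962) had 21.

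**Figure D3:**
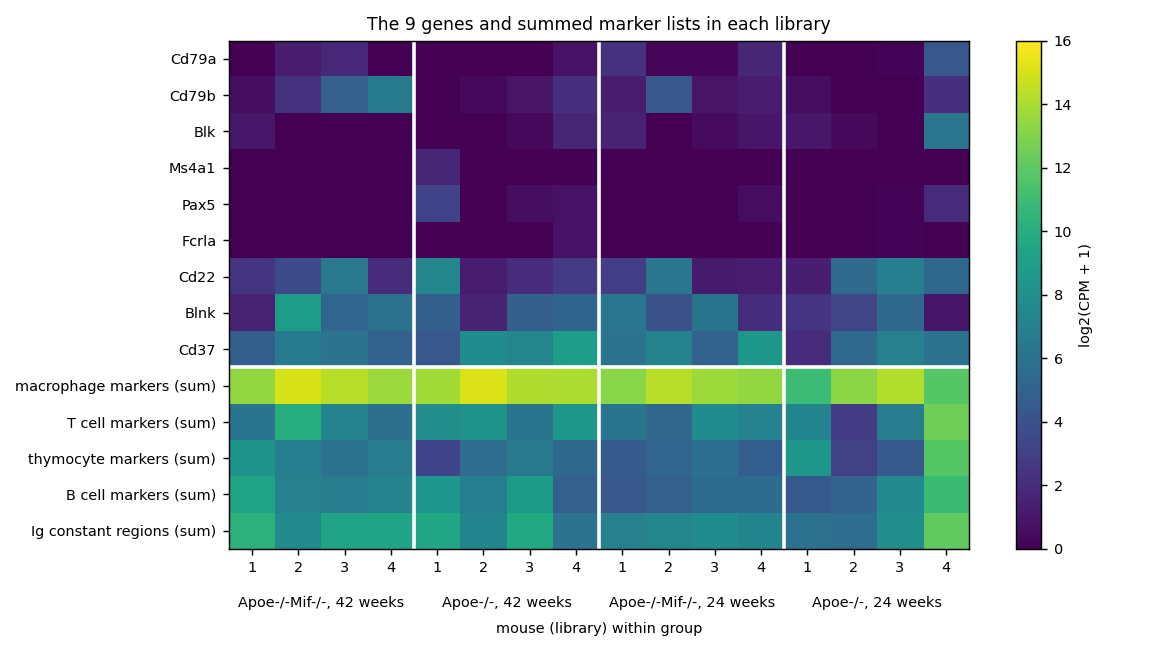
Level in each library (columns, by group) of the 9 genes and of summed marker lists (rows), as log2(CPM + 1) in colour. The last column, Apoe-/- library 4 at 24 weeks, is high at once in Cd79a, Blk, T cell, thymocyte and immunoglobulin transcripts (4390 CPM of summed constant regions).

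Only Cd79b, Cd22, Blnk and Cd37 passed the filter on low counts and could be tested. The other 5 genes held 369 counts, 3.43% of those of the 9, and gave no adjusted p in the filtered fit. A gene was called at a Benjamini-Hochberg adjusted p under 0.05 over the 10634 genes tested, in edgeR's quasi-likelihood fit of all 16 libraries.

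Loss of Mif at 42 weeks gave no called member. Cd79b had the largest difference of the 4, a log2 fold change of 4.73 ± 2.01 (SE; edgeR adjusted p = 0.229), and its value was 3.01 without Apoe-/-Mif-/- library 4. Blnk had 2.58 ± 1.45 (edgeR adjusted p = 0.352), which was 0.58 without library 2 of that group. Cd37 had -1.98 ± 1.13 (edgeR adjusted p = 0.358), which was -1.25 without Apoe-/- library 4. Cd22 had -0.68 ± 1.58 (edgeR adjusted p = 0.863), and turned to 2.68 without the shallowest library. So 0 of 4 tested members were called, where edgeR called 0% of all genes. Mif, the deleted gene, was not called either (-4.11 ± 1.22 SE, edgeR adjusted p = 0.176). The lack of a call therefore says little about the members. At an unadjusted p under 0.05 edgeR gave 1 of 4, Cd79b, beside 17.3% of all genes. DESeq2 gave an unadjusted p for 8 members and an adjusted p for 4. It called 0 members (lowest DESeq2 adjusted p = 0.0953, for Cd79b) and 7.28% of the 9853 genes with an adjusted p. At an unadjusted p under 0.05 it gave 2 of 8 members, Cd79b and Blnk, beside 11.4% of 21680 genes. In the later comparisons too, its shares of all genes are over the genes to which it gave such a p. In CPM, 0 of the 4 tested members had groups that did not overlap, against 2.2% of the genes tested. The other 5 had none either, but their few counts leave little room for groups to lie apart. The median log2 fold change was 0.946 over the 4 members and 0.093 over all genes.

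Loss of Mif at 24 weeks likewise gave 0 called members, where edgeR called 0.047% of all genes. Log2 fold changes were 2.46 ± 1.80 for Cd79b, 1.65 ± 1.40 for Blnk, 1.31 ± 1.11 for Cd37 and -1.22 ± 1.58 for Cd22 (SE; lowest edgeR adjusted p = 0.874). The Cd79b value was 0.15 without Apoe-/-Mif-/- library 2 and 5.31 without Apoe-/- library 4. That of Blnk was 3.12 without Apoe-/- library 3, and that of Cd37 was 0.42 without Apoe-/-Mif-/- library 4 and 1.99 without Apoe-/- library 3. Cd22 ran from -4.05 without Apoe-/-Mif-/- library 2 to -0.41 without Apoe-/- library 3. At an unadjusted p under 0.05 there were 0 members by edgeR (7.33% of all genes) and 0 by DESeq2 (6.96%), which called 0 members and 2.44% of all genes. No tested member had groups apart in CPM (3.84% of the genes tested). The median was 1.478 over the 4 members and -0.181 over all genes. Adipocyte markers, whose summed level was 91.0 to 413 CPM in Apoe-/-Mif-/- mice and 88.6 to 20728 CPM in Apoe-/- mice, differed between these groups, with 2 of 7 tested markers called lower (Thrsp, edgeR adjusted p = 0.0191, and Plin1, 0.0466). Their part in the values of the 9 genes was not tested.

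Longer diet, set against shorter, moved no tested member past the threshold in either genotype. In Apoe-/-Mif-/- mice the log2 fold changes of 42 against 24 weeks were 2.46 ± 1.78 for Cd79b, 1.70 ± 1.41 for Blnk, 0.30 ± 1.56 for Cd22 and -1.42 ± 1.11 for Cd37 (SE; lowest edgeR adjusted p = 0.572). The Cd79b value was 0.85 without library 4 at 42 weeks and 4.84 without library 2 at 24 weeks, and that of Cd37 was -0.47 without library 4 at 24 weeks. The Blnk value was -0.20 without library 2 at 42 weeks, and Cd22 ran from -1.81 to 3.09 as single libraries were left out. edgeR called 0 members and 0.122% of all genes. At an unadjusted p under 0.05 edgeR gave 0 members (13.1% of all genes) and DESeq2 gave 1, Blnk (10.3% of all genes), with 0 called (5.69% of all genes). No tested member had groups apart, against 4.38% of the genes tested. The median was 1.001 over the 4 members and 0.124 over all genes. Adipocyte markers, at 116 to 13293 CPM summed at 42 weeks and 91.0 to 413 CPM at 24 weeks, had 7 of 7 tested genes higher with a median log2 fold change of 6.032, and 3 were called (edgeR adjusted p = 0.0106 for Thrsp, 0.025 for Car3 and 0.0401 for Plin1). Their part in these values of the members was not tested.

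In Apoe-/- mice Cd37 had a log2 fold change of 1.86 ± 1.12 for 42 against 24 weeks (SE; edgeR adjusted p = 0.521). Blnk had 0.78 ± 1.38, Cd79b 0.18 ± 1.77 and Cd22 -0.23 ± 1.57, which was 0.69 with RLE scaling. Cd79b was -1.18 without library 4 at 42 weeks and 3.04 without library 4 at 24 weeks, and Cd22 was -3.64 without the shallowest library. Without library 3 at 24 weeks Blnk was 2.24, and without library 4 at that time it was 0.38. Cd37 was 1.19 without library 4 at 42 weeks. edgeR called 0 members and 0% of all genes. At an unadjusted p under 0.05 edgeR gave 0 members (12.2% of all genes) and DESeq2 gave 1, Cd37 (10.3% of all genes), with 0 called (3.25% of all genes). No tested member had groups apart, against 4.16% of the genes tested. The median was 0.480 over the 4 members and -0.124 over all genes. The 12 macrophage markers, summed, lay at 14048 to 37067 CPM at 42 weeks and at 2041 to 18039 CPM at 24 weeks in these mice.

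**Figure D4:**
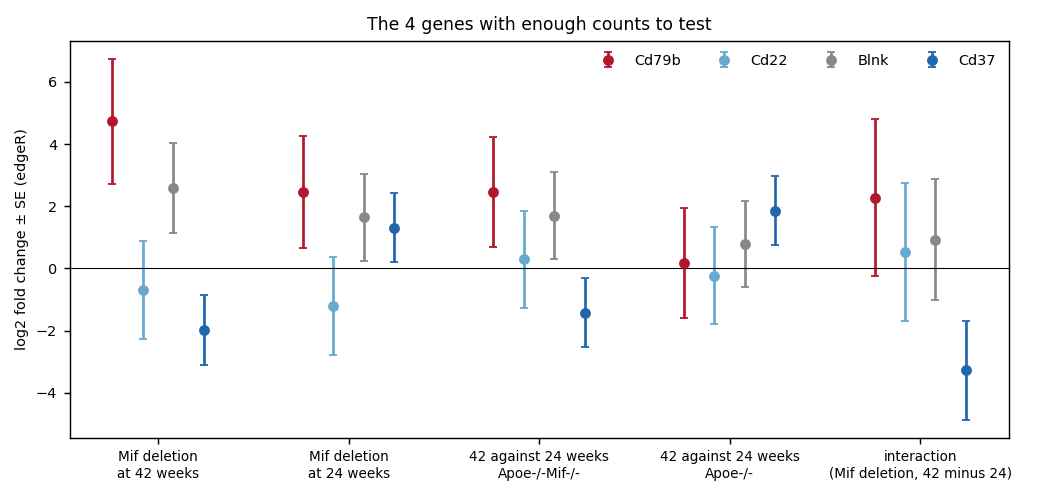
Log2 fold change (edgeR, vertical axis, bars show SE) of the 4 tested genes in each comparison (horizontal axis), with the interaction as the effect of Mif deletion at 42 minus that at 24 weeks. Cd79b at 42 weeks (4.73 ± 2.01) and Cd37 in the interaction (-3.28 ± 1.58) lie farthest from 0, and none of the values passed the adjusted threshold.

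The interaction asks whether the effect of Mif deletion differed between both durations. For Cd37 it was -3.28 ± 1.58 on the log2 scale (SE; edgeR adjusted p = 0.336). Its means, given above, were 55.3 CPM in Apoe-/-Mif-/- and 217 CPM in Apoe-/- mice at 42 weeks, and 147 and 59.5 CPM in the same genotypes at 24 weeks. The value stayed between -4.0 and -2.45 as each library was left out. Cd79b had 2.28 ± 2.53, Blnk 0.93 ± 1.95 and Cd22 0.53 ± 2.21, which was -0.12 with RLE scaling. Cd79b was -0.58 without Apoe-/- library 4 at 24 weeks, Blnk -1.04 without Apoe-/-Mif-/- library 2 at 42 weeks and Cd22 -1.56 without Apoe-/-Mif-/- library 3 at 42 weeks. The median was 0.728 over the 4 members and 0.264 over all genes. edgeR called 0 members here and 0.686% of all genes. At an unadjusted p under 0.05, edgeR and DESeq2 each gave 1 member, Cd37 (14.2% of all genes by edgeR, 9.72% by DESeq2), and DESeq2 called 0 members (4.78% of all genes). This comparison crosses the plate rows, and 3 of 7 adipocyte markers were called higher in it (median log2 fold change 6.995), whose part in the members' values was not tested.

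Among the 7 genes correlated with the macrophage markers, which left out Ms4a1 and Fcrla, Cd37 had the highest positive correlation. Over the 16 libraries, log2(CPM + 1) of Cd37 and of 12 summed macrophage markers had r = 0.62 and rho = 0.56. Blnk had r = 0.45 and rho = 0.30, Cd22 0.12 and 0.20, and Cd79b 0.14 and 0.16. Blk had r = -0.59 and rho = -0.74, and it was highest in a library with 3586 CPM of macrophage markers. It had fewer than 10 counts in the other 15 libraries, so these 2 values rest on 1 library and on counts at or near 0. Both values of a point come from 1 library and share its depth. The macrophage list itself had 0 of 12 genes called in each comparison, where edgeR called at most 0.686% of all genes. Its median log2 fold change was -0.498 for Mif deletion at 42 weeks, 0.844 at 24 weeks and -1.424 for the interaction. For 42 against 24 weeks the median was 0.431 in Apoe-/-Mif-/- mice, where Cd37 went the other way (-1.42). In Apoe-/- mice it was 1.395, beside 1.86 for Cd37. The part of the macrophage list in the Cd37 values was not tested.

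**Figure D5:**
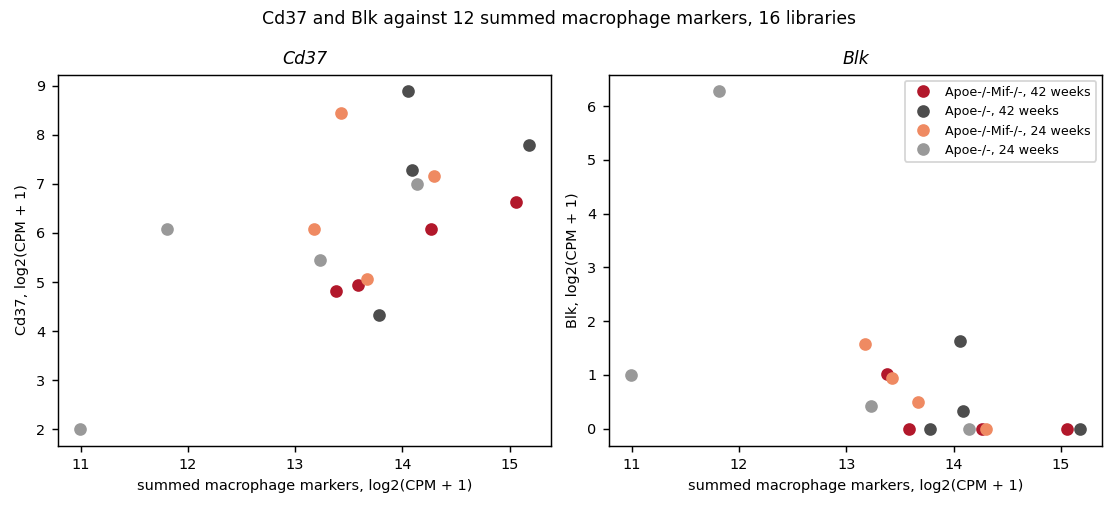
Level of Cd37 (left) and Blk (right) against the summed level of 12 macrophage markers, both as log2(CPM + 1), in 16 libraries coloured by group. Cd37 is higher where macrophage markers are higher (r = 0.62), and Blk is high in 1 library with 3586 CPM of those markers.

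Other genes of the B cell receptor pathway included widely made ones with many counts. Of 25 listed, 20 passed the filter, and Cd81, a widely made tetraspanin, held 38177 counts. Vav1, Ptpn6, Lyn and Syk, exchange factor, phosphatase and kinases of many blood cells, held 4893, 4615, 2941 and 2682 counts, while the B cell genes Siglecg and Bank1 held 11 and 65. In each of the 5 comparisons 0 of the 20 were called by edgeR, which called at most 0.686% of all genes. At 42 weeks 8 of the 20 were higher and 12 lower in Apoe-/-Mif-/- than in Apoe-/- mice, where 51.8% of all genes were higher, with a median log2 fold change of -0.324. The smallest p there belonged to Rasgrp3, an exchange factor for Ras downstream of the receptor (log2 fold change 7.84 ± 2.89 SE, edgeR adjusted p = 0.187), and to Dapp1, an adaptor (5.47 ± 2.11, adjusted p = 0.199). Rasgrp3 had 68 counts in the Apoe-/-Mif-/- group and 0 in the Apoe-/- group at 42 weeks, so its fitted value is no bound.

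At 24 weeks the smallest p of the pathway were those of Btk (-3.04 ± 1.68 SE, edgeR adjusted p = 0.763), the kinase that Blnk brings to the receptor, and Rasgrp3 (3.83 ± 2.18, adjusted p = 0.778), with 9 of 20 higher (45.1% of all genes) and a median of -0.133. For 42 against 24 weeks they were Vav2 (-3.97 ± 1.51, adjusted p = 0.272) and Btk (4.12 ± 1.77, adjusted p = 0.321) in Apoe-/-Mif-/- mice, and Dapp1 (-4.48 ± 2.02, adjusted p = 0.365) and Vav2 (-2.62 ± 1.44, adjusted p = 0.468) in Apoe-/- mice. For the interaction they were Btk (6.02 ± 2.39, adjusted p = 0.229) and Dapp1 (5.97 ± 2.64, adjusted p = 0.289), and the median of the 20 was -1.096, beside 0.264 over all genes. Single libraries weighed on these values. At 24 weeks, 222 of the 250 Rasgrp3 counts of the Apoe-/-Mif-/- group were in library 2. Of the 585 Btk counts of the Apoe-/- group at 24 weeks, 430 were in library 3.

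Of 22 surface and antigen presentation genes of B cells, 9 were tested and 0 called in each of the 5 comparisons. Cd180, a Toll-like receptor homologue of B cells and myeloid cells, had 199 counts in Apoe-/-Mif-/- and 0 in Apoe-/- arteries at 42 weeks, of which 174 were in library 3 of the first group (edgeR adjusted p = 0.176). Cd38, an ectoenzyme, had -4.51 ± 1.85 there (adjusted p = 0.214). The same count of 0 called genes held in every comparison for 8 tested transcription factors of 14 listed and 2 precursor genes of 10. It also held for 4 plasma cell genes of 10, 3 germinal centre genes of 8 and 4 immunoglobulin constant regions of 12. The 6 tested attraction and survival genes of 13 gave 0 as well. Since edgeR called at most 0.686% of all genes in a comparison, a count of 0 in lists this short says little about them. Cxcl13, the chemokine that draws B cells into follicles, had 3 counts in all libraries together.

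Ighm, the constant region of IgM, and Igkc each had more counts than any of the 9 genes. At 42 weeks Ighm had 1288, 88, 194 and 335 counts in Apoe-/-Mif-/- mice, against 155, 387, 1593 and 39 in Apoe-/- mice. At 24 weeks it had 28, 131, 220 and 101 counts in Apoe-/-Mif-/- mice, against 40, 171, 1670 and 5668 in Apoe-/- mice. The groups overlapped at both times. For Mif deletion at 24 weeks Ighm had a log2 fold change of -3.87 (edgeR adjusted p = 0.274) and Iglc1, a lambda chain, -6.06 (adjusted p = 0.295), and Igkc had -2.28 (adjusted p = 0.721). Without both the shallowest library and Apoe-/- library 4 at 24 weeks these values were -1.18, -3.68 and, for Igkc, 2.14. Jchain, which joins secreted IgM and IgA, had 43 and 51 counts in libraries 3 and 4 of the Apoe-/-Mif-/- mice at 42 weeks, 281 in Apoe-/- library 4 at 24 weeks and at most 20 elsewhere. Igkc, the kappa constant region, and Cd79b had r = 0.39 and rho = 0.42 over the 16 libraries.

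The weight of single libraries differed among the 4 tested genes. The library with the highest CPM supplied 59.4% of the summed CPM of Cd79b, 52.1% of that of Blnk, 28.8% of that of Cd22 and 24.7% of that of Cd37. Over all 10634 genes tested the median of this share was 32.2%, and 18.7% of genes had over 50%. Cd79b and Blnk were thus among those 18.7%, and Cd22 and Cd37 lay below the median.

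The genes whose pattern was most like that of Cd79b, Cd22, Blnk and Cd37 together (mean of log2(CPM + 1)) over the 16 libraries, among 10220 candidates, included Trerf1 (r = 0.76), Scarf2 (0.75), Peak1 and Cpxm1 (0.74 each), Akr1b3, Tnip1 and Pitpna (0.72 each), and Carns1 and Phactr4 (0.71 each). Of the 10 most alike, 6 were again among the 10 when Apoe-/-Mif-/- library 3 at 42 weeks, the highest in the mean, was left out. Cd79b, Cd22, Blnk and Cd37 did not share a pattern themselves. Pearson r between pairs of them ran from -0.01 (Cd22 and Cd37) to 0.28 (Cd79b and Blnk) over the 16 libraries. Their mean is thus not a joint profile. The r that chance gives for the highest of 10220 candidates was not tested, so the ranking is a description only.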

How the data were processed

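Whole-number counts per gene symbol were deposited by the authors as 1 table of 55359 rows. Per the submitters' processing notes, the tools were cutadapt 1.18, Trim Galore 0.6.4, FastQC 0.11.5 and STAR 2.5.2b, with build GRCm39; the program that counted reads is not given in the sources used here, nor is its annotation. Per the labels' protocols, 1 ng of polyadenylated RNA per mouse was amplified by Smart-seq2 and sequenced as 100 bp read pairs. The authors also deposited variance-stabilised values on a log2 scale for 9578 genes, 3 of the members among them, which served as an alternative input. No column was left unmapped.

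A row with a blank name (at most 0.00257% of the counts of 1 library) and 2 reporter rows were left out. The main test was that of edgeR 4.0.16 under R 4.3.3 (quasi-likelihood F test, TMM, filterByExpr with a minimum count of 10 and total of 15, 1 fit of all 16 libraries, 12 residual degrees of freedom). DESeq2 1.42.0 and limma 3.58.1 were alternatives; DESeq2 gave no p for Blk. The code was tested on simulated data. Exon lengths came from GENCODE M21. Each library is a separate mouse per the labels.

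All 9 genes were named, with the called genes of each other list, or else the 2 with the smallest p in a comparison discussed, and Ighm, Ighd, Igkc, Jchain, Cxcl13, Rag1, Cd3e and Mif. Fcer2a, Spib and the genes named for their total counts were chosen after their values were seen. Cd3e, a T cell receptor subunit, had 435 counts and passed in no comparison. Of the other marker lists, edgeR called 1 T cell gene (Trbc1, adjusted p = 0.0254), 1 endothelial gene (Kdr, 0.0432) and 3 adipocyte genes in the interaction. It called 3 adipocyte genes for 42 against 24 weeks in Apoe-/-Mif-/- mice and 2 for Mif deletion at 24 weeks. None of the thymocyte, plasmacytoid dendritic cell, macrophage, smooth muscle and red cell lists was called in any comparison. Some genes that this rule names are not reported here. The members and lists were chosen with earlier results of these data known.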

Additional observations from a re-analysis of the deposited data

Results flagged for a closer look

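In a group of 4 libraries, a value was singled out where its gap to the nearest of the others was a larger share of the range of the group than Dixon's 95% critical value. Chance does this in about 1 of 20 groups of normally spread values. It happened in 6 of 16 groups of the 4 tested members (37.5%) and in 29.1% of the groups of all genes tested. It also happened in 11 of 14 groups of the 5 genes too low to test, where a single library with any count stands out by construction.

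In Apoe-/-Mif-/- mice at 42 weeks, the library that stood above the rest was library 3 for Cd22 (85.2 CPM), library 2 for Blnk (451 CPM) and library 1 for Blk (1.03 CPM, 2 counts). In Apoe-/- mice at 42 weeks, library 1, the shallowest, stood above the rest for Cd22 (160 CPM), Pax5 (8.43 CPM) and Ms4a1 (2.11 CPM, 1 count). Library 4 of that group did so for Blk (2.09 CPM), Cd79a (0.698 CPM) and Fcrla (0.698 CPM), the last 2 on 1 count each.

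Among Apoe-/-Mif-/- mice at 24 weeks, library 2 stood above the rest for Cd22 (75.5 CPM) and Cd79b (19.7 CPM), and library 4 for Pax5 (0.463 CPM, 1 count). Among Apoe-/- mice at 24 weeks, library 4 stood above the rest for Blk (76.3 CPM), Cd79a (19.1 CPM), Cd79b (3.75 CPM) and Pax5 (2.81 CPM), and library 3 for Fcrla (0.109 CPM, 1 count).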

How the results depend on the processing

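No member was called in any of the 5 comparisons under any alternative run, and 0 were called as each library was left out (0 to 0). Directions were less stable. Under the alternatives 284 log2 fold changes of members kept their direction and side of the threshold and 29 turned round. For Mif deletion at 42 weeks Cd22 was 0.77 with limma voom, 0.21 on the deposited values and 2.85 without both the shallowest library and Apoe-/- library 4 at 24 weeks, a setting chosen after seeing the data. For 42 against 24 weeks in Apoe-/- mice Cd22 was 0.69 with RLE scaling and 0.69 with DESeq2. In the interaction Cd22 was -0.12 with RLE scaling and -0.12 with DESeq2, Blnk was -0.43 (voom) and -0.08 (deposited values), and Cd79b was -0.91 without both libraries. The causes were not tested.

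Leaving out each library gave ranges that crossed 0 for Cd22 (-2.78 to 2.68 for Mif deletion at 42 weeks, -1.81 to 3.09 and -3.64 to 0.55 for duration in Apoe-/-Mif-/- and Apoe-/- mice, -1.56 to 3.88 for the interaction), for Blnk (-0.20 to 2.23 for duration in Apoe-/-Mif-/- mice, -1.04 to 1.40 for the interaction) and for Cd79b (-1.18 to 3.04 for duration in Apoe-/- mice, -0.58 to 4.58 for the interaction).

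The number of all genes called depended on the tool. DESeq2 called 717 and 267 genes for Mif deletion at 42 and 24 weeks, 561 and 339 for duration in Apoe-/-Mif-/- and Apoe-/- mice, and 498 in the interaction. Without the filter on low counts edgeR called 150, 117, 419, 18 and 426 in the same order, against 0, 5, 13, 0 and 73 with it. Voom called 0 in each comparison. The deposited values gave 2 for duration in Apoe-/-Mif-/- mice and 0 for Mif deletion at 24 weeks and the interaction. RLE scaling gave 0 for Mif deletion at 24 weeks and 22 for duration in Apoe-/-Mif-/- mice, and moved the median of all genes by 0.19, 0.06, 0.42, 0.28 and 0.11 in the order above. Without both of these libraries the counts were 1 for Mif deletion at 24 weeks and 0 in the interaction. Leaving out each library gave 0 to 1, 0 to 21, 0 to 33, 0 to 0 and 0 to 124 genes.

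In the fit of plate row B alone Cd79b did not pass the filter and gave no value. No paired analysis was possible because each mouse was in 1 group and replicate numbers only follow the order of the samples. Depth limits 5 of the 9 genes to a description of counts.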
